A study of Homo sapiens with 8 samples.

Results

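The mitochondrial ribosomal proteins were followed across 8 human breast tumor xenografts. Members were all rows of the deposited table whose symbol is MRPL or MRPS followed by a number and an optional letter, MRPL marking the large and MRPS the small ribosomal subunit. The rule used names only and no measured value, and it found 78 genes of 18164, 49 with a large subunit symbol and 29 with a small subunit symbol. Each tumor grew from the human cell line HCC1937, of triple-negative breast cancer origin, after injection into the inguinal mammary fat pad of NCG mice, which lack lymphocytes of their own. Mice were assigned once tumors had reached 100 to 150 mm3, and 4 tumors came from mice given NMN (nicotinamide mononucleotide, from which cells make NAD+), 500 mg/kg/day, and 4 from mice given vehicle. RNA was taken from whole tumor tissue and sequenced, and values are TPM, a transcript level scaled for transcript length and to a fixed total per library. All tumors came from 1 cell line, and the labels do not state that each came from a different mouse, so p-values measure only the spread between these 8 samples, called NMN 1 to 4 and Vehicle 1 to 4. The series as titled asks how raising NAD+ bears on metastasis.

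Mitochondria keep a small genome of their own and a ribosome to translate it. That ribosome pairs ribosomal RNA made inside the organelle with proteins encoded in the nucleus, made in the cytosol and imported, and in human cells it makes only core subunits of the respiratory chain and the ATP synthase. The small subunit binds the messenger RNA and decodes it, and the large subunit joins the amino acids. Many of its proteins have bacterial counterparts, while others were gained in the mitochondrial lineage. The ribosomal RNAs of the mitochondrion were not analysed here.

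The libraries were comparable in breadth and rich in keratins. Between 16451 and 16662 genes were above 0 in each library, and the number of reads behind the TPM values is unknown. Basal keratins were abundant, with KRT5 at a mean of 3862 TPM and KRT14 at 3647 TPM. The keratins KRT19, KRT8 and KRT18 were abundant too, at 692.5, 624.3 and 570.4 TPM. The estrogen receptor gene ESR1 stood at 4.61 TPM and the progesterone receptor gene PGR at 0.0025 TPM. ERBB2, at 100 TPM, was above the median tested gene (18.9 TPM). Summed skeletal muscle markers ran from 34.5 to 730 TPM in the NMN tumors and from 496 to 2975 TPM in the Vehicle tumors, and NMN 1, 2 and 3 held 55.1, 34.5 and 50.5 TPM. Summed hypoxia response genes ran from 3431 to 7674 TPM in the NMN tumors and from 2871 to 4312 TPM in the Vehicle tumors, and NMN 4 held the lowest NMN value. Summed cell cycle genes overlapped, at 1505 to 1850 TPM with NMN and 1561 to 1943 TPM with Vehicle. In whole tumor RNA, fewer cells of a type and less RNA per cell cannot be told apart. The handling of mouse reads is not given, so these sums may also hold reads from host cells.

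All 78 members passed the filter of at least 1 TPM in at least 4 tumors, which 13358 genes of the table passed. Their mean level over the 8 tumors ran from 1.5 TPM for MRPL23 to 322 TPM for MRPL51, a 215-fold range that was 53.4-fold without MRPL23. The median member stood at 76.7 TPM, at percentile 85 of all tested genes, whose median was 18.9 TPM. Large subunit symbols had a median of 81.3 TPM and small subunit symbols of 71.2 TPM. At or above 100 TPM were 26 members, 19 of them large and 7 small, another 44 lay between 15 and 100 TPM, and 8 lay under 15 TPM. Although the proteins other than MRPS36 assemble into 1 particle, their transcripts were therefore far from equal in measured TPM.

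The large subunit member with the highest level was MRPL51, a mitochondria-specific protein. It measured 316, 317, 285 and 315 TPM in NMN 1 to 4 and 362, 341, 306 and 336 TPM in Vehicle 1 to 4. Next came MRPL36, the counterpart of a small zinc-binding protein of the bacterial large subunit, at a mean of 275 TPM, and MRPL41 at 186 TPM. Among small subunit symbols MRPS6 (176 TPM), MRPS15 (175 TPM) and MRPS24 (141 TPM), all counterparts of bacterial proteins, led. MRPS6 ran from 156 to 201 TPM with NMN and from 156 to 192 TPM with Vehicle, so its ranges nearly coincided.

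At the other end stood MRPL23, the counterpart of a bacterial protein at the exit of the peptide tunnel. It measured 2.04, 1.35, 1.35 and 0.49 TPM in NMN 1 to 4 and 1.62, 2.19, 2.42 and 0.52 TPM in Vehicle 1 to 4. NMN 4 and Vehicle 4 were the low tumors, 1 in each group, and its coefficient of variation of 48.3% was the widest of all members. MRPL42 (mean 6.03 TPM), MRPS33 (7.84 TPM), MRPS11 (9.27 TPM), MRPS23 (9.60 TPM), MRPL19 (10.0 TPM), MRPS36 (12.6 TPM) and MRPL46 (12.6 TPM) were the other members under 15 TPM. Of these, MRPL42 varied little, from 5.39 to 6.72 TPM over all 8 tumors.

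**Figure D1:**
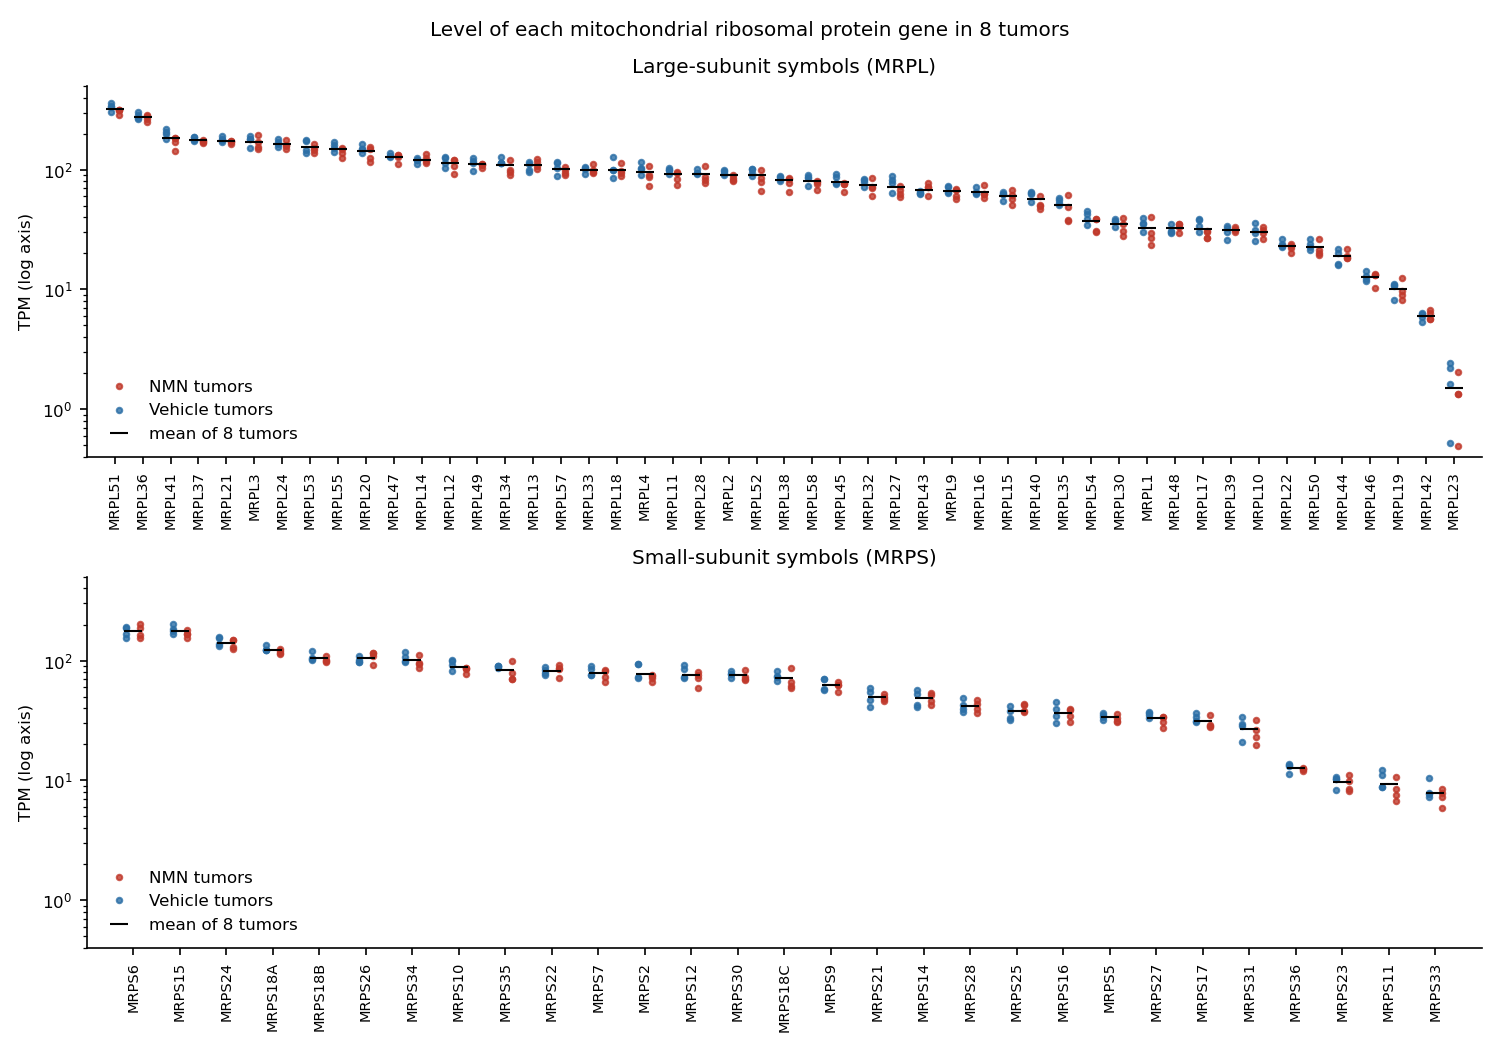
TPM of each member in each tumor (log axis), with large subunit symbols in 1 panel and small subunit symbols in the other, ordered by mean level. MRPL51 leads at a mean of 322 TPM, MRPL23 lies lowest at 1.5 TPM, and for most genes the NMN and Vehicle points overlap.

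Levels of genes with many pseudogene copies can be spread by the counting. Named pseudogenes were annotated for 34 members, 75 in all, with 8 for MRPS21 and 5 each for MRPL57 and MRPS36. The 10 members with at least 3 such copies had a median of 29.1 TPM, and the 44 members without any had a median of 79.4 TPM. The part of the copies in those levels was not tested, and values of these 34 members are uncertain to that extent. In addition, 38 members overlap another coding gene, 26 of them on the opposite strand and 13 on the same strand, with MRPL33 in both counts. No label states whether counting used the strand, so reads from opposite-strand partners cannot be told apart. For partners on the same strand, knowing the strand would not separate the reads.

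The median member varied by less between tumors than the median gene of the table. Its coefficient of variation over 8 tumors was 10%, against 14.2% in the 10729 tested genes with a mean of at least 5 TPM. Those genes were not matched for level, with a median of 25.8 TPM against 76.7 TPM for members. The part of level in the variation was not tested. Cytosolic ribosomal proteins had a median of 7.88% and nuclear-encoded respiratory chain subunits one of 8.13%, at median levels of 1621 and 198 TPM. MRPL37 (4.09%), MRPL21 (4.56%) and MRPS18A (5.32%) varied least. MRPS18A, 1 of 3 related human proteins and a large subunit component despite its name, measured 116, 114, 124 and 120 TPM with NMN and 122, 124, 123 and 136 TPM with Vehicle.

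With NMN, mean levels of most members were slightly lower in both subunits, and no single member passed the test. By limma with Benjamini-Hochberg adjustment over 13358 genes, 0 of 78 members were called, as were 0 genes of the whole table (0% of tested genes). The smallest adjusted p of a member was 0.663. At an unadjusted p under 0.05, 2 members were lower with NMN (MRPL17 and MRPL41) against 2.15% of tested genes, and 0 were higher against 4.79%. That count of 2 was 0 without NMN 1 (1.41% of tested genes), 11 without NMN 4 (4.88%) and 5 with median-of-ratios scaling (3.31%), and still 0 members passed after adjustment. A lower mean with NMN was seen in 65 of 78 members (83.3%), where 49% of tested genes had one. The share was 41 of 49 large subunit symbols (83.7%) and 24 of 29 small subunit symbols (82.8%).

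The median log2 fold change, taken as NMN minus Vehicle in mean log2(TPM + 1), was -0.10 over all members, -0.11 for the large and -0.08 for the small subunit symbols, against 0.00 over all tested genes. Single members ran from -0.27 to 0.16, and 76 of 78 lay within 0.25 of 0, as did 81.7% of tested genes. Leaving out 1 tumor moved the large subunit median between -0.07 (without NMN 2) and -0.13 (without NMN 4), and the small subunit median between -0.06 (without NMN 3) and -0.12 (without NMN 4). Without Vehicle 1 both stood at -0.09, with the small subunit the lower, so the order of the subunits did not hold. The shift was thus small and shared by many members. These are descriptions of 1 set of genes whose transcripts come from the same 8 libraries, and members are not replicates of a treatment.

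**Figure D2:**
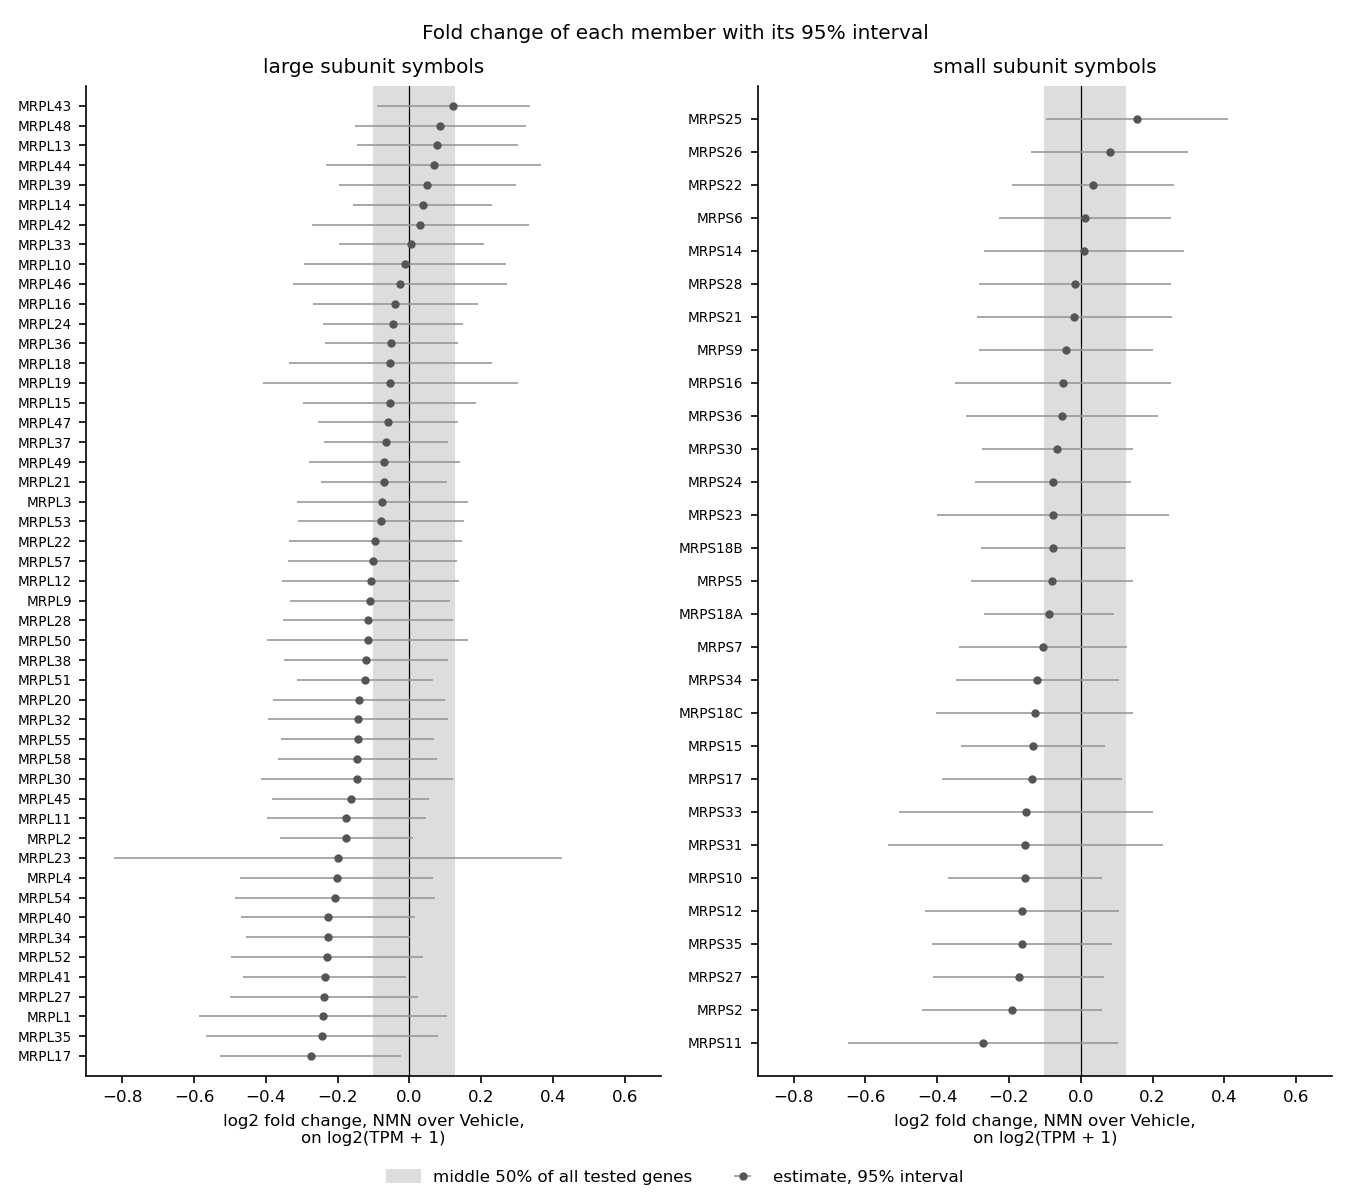
Log2 fold change of each member, as NMN minus Vehicle in log2(TPM + 1), with the 95% interval from limma; the gray band holds the middle 50% of all tested genes. Most points lie left of 0, in both panels, and intervals cross 0 except for MRPL17 and MRPL41.

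Among large subunit members, MRPL17 had the lowest fold change. It is the counterpart of a bacterial protein near the exit of the peptide tunnel. It measured 27.1, 30.7, 27.1 and 30.0 TPM in NMN 1 to 4 and 33.7, 37.8, 30.0 and 38.9 TPM in Vehicle 1 to 4. Vehicle 3 was the 1 Vehicle tumor inside the NMN range. The log2 fold change was -0.27 ± 0.12 (SE, 95% interval -0.53 to -0.02), with an adjusted p of 0.663 by limma and an exact two-sided permutation p of 0.0571. That test cannot go below 0.0286 with 4 tumors against 4.

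MRPL41, a mitochondria-specific protein, measured 170, 144, 184 and 184 TPM with NMN and 180, 206, 198 and 218 TPM with Vehicle. Vehicle 1 alone fell inside the NMN range, and the log2 fold change was -0.24 ± 0.10 (adjusted p 0.698 by limma). MRPL34, the counterpart of a small basic bacterial protein, measured 90.5, 95.6, 98.5 and 120 TPM with NMN and 115, 115, 114 and 128 TPM with Vehicle. Here NMN 1, 2 and 3 were below every Vehicle tumor and NMN 4 was not, and the log2 fold change was -0.23 ± 0.10 (adjusted p 0.719 by limma).

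MRPL2, the counterpart of a bacterial protein close to the peptidyl transferase center, was the 1 member whose groups did not overlap. It measured 89.8, 84.7, 80.4 and 82.5 TPM with NMN and 93.5, 91.0, 97.9 and 99.1 TPM with Vehicle, a log2 fold change of -0.18 ± 0.08 (adjusted p 0.755 by limma, exact permutation p 0.0286). Non-overlapping groups with NMN lower made up 0.966% of tested genes, and with NMN higher 2.08%, where no member stood. When the libraries were instead scaled by the median of ratios over genes, MRPL2 overlapped, with NMN 2 at 91.8 against a lowest Vehicle value of 90.5, while MRPL30 and MRPL58 did not overlap, against 1.92% of tested genes. MRPL58, a peptidyl-tRNA hydrolase built into the large subunit, then ran from 73.3 to 78.1 with NMN and from 79.6 to 91.7 with Vehicle.

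MRPL40 measured 50.1, 50.8, 47.0 and 60.6 TPM with NMN and 65.3, 62.4, 63.4 and 53.3 TPM with Vehicle, and here Vehicle 4 was low for its group and NMN 4 high. MRPL27, the counterpart of a bacterial protein that reaches toward the peptidyl transferase center, measured 67.4, 73.3, 58.7 and 62.4 TPM with NMN and 81.5, 63.4, 77.6 and 88.2 TPM with Vehicle. Vehicle 2 lay inside the NMN range. Their log2 fold changes were -0.23 ± 0.11 and -0.24 ± 0.12, with adjusted p of 0.760 and 0.776 by limma. MRPL12, which forms the flexible stalk that recruits translation factors, had a fold change of -0.11 ± 0.11 that ran from -0.17 without Vehicle 1 to -0.0252 without NMN 2.

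Only 8 large subunit symbols had a higher mean with NMN. MRPL43 measured 77.0, 60.6, 72.1 and 71.8 TPM with NMN and 64.2, 62.5, 66.4 and 64.3 TPM with Vehicle, a log2 fold change of 0.12 ± 0.10 (adjusted p 0.916 by limma). NMN 2 lay below the Vehicle range and the other NMN tumors above it. MRPL48 (0.09 ± 0.11), MRPL13 (0.08 ± 0.10), MRPL44 (0.07 ± 0.14), which carries a ribonuclease III-like fold, MRPL39 (0.05 ± 0.11), which resembles part of a threonyl-tRNA synthetase, and MRPL14 (0.04 ± 0.09) followed. Of these 6, MRPL43 alone differed by more than its standard error.

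Among small subunit members, MRPS11 had the lowest fold change and also 1 of the lowest levels. It is the counterpart of a bacterial protein of the platform, where the messenger RNA leaves. It measured 6.70, 7.49, 8.43 and 10.7 TPM with NMN and 12.2, 11.1, 8.85 and 8.73 TPM with Vehicle. NMN 4 alone overlapped the Vehicle tumors, and the log2 fold change was -0.27 ± 0.17 (adjusted p 0.860 by limma).

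MRPS2 measured 66.8, 71.2, 73.7 and 76.3 TPM with NMN and 72.0, 72.6, 92.9 and 94.5 TPM with Vehicle. The Vehicle tumors split, with Vehicle 3 and 4 high and Vehicle 1 and 2 within the NMN range, and the log2 fold change was -0.19 ± 0.11 (adjusted p 0.849 by limma). MRPS27, a pentatricopeptide repeat protein, measured 33.9, 27.1, 30.7 and 33.7 TPM with NMN and 32.9, 35.0, 37.0 and 36.5 TPM with Vehicle, a log2 fold change of -0.17 ± 0.11. Vehicle 1 lay within the NMN range.

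MRPS35, a mitochondria-specific protein, measured 70.8, 79.1, 70.2 and 98.9 TPM with NMN and 89.5, 86.2, 89.4 and 89.5 TPM with Vehicle. The Vehicle tumors were nearly equal, NMN 1, 2 and 3 lay below all of them and NMN 4 above all of them, and the log2 fold change was -0.16 ± 0.11 (adjusted p 0.886 by limma). MRPS10 measured 86.8, 86.0, 76.6 and 85.0 TPM with NMN and 92.0, 81.7, 98.2 and 102 TPM with Vehicle, and only Vehicle 2 overlapped the NMN tumors. Its log2 fold change was -0.16 ± 0.10 and that of MRPS15 -0.13 ± 0.09.

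Of the small subunit symbols 5 had a higher mean with NMN. MRPS25 measured 43.3, 37.1, 37.6 and 42.8 TPM with NMN and 41.6, 31.9, 37.6 and 33.4 TPM with Vehicle, a log2 fold change of 0.16 ± 0.12 (adjusted p 0.903 by limma). Vehicle 2 and Vehicle 4 lay below the NMN range and the other Vehicle tumors within it. MRPS26 followed at 0.08 ± 0.10 and MRPS22 at 0.03 ± 0.10. MRPS6 and MRPS14 were both at 0.01, and under median-of-ratios scaling both stood at 0.00 with a negative sign.

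**Figure D3:**
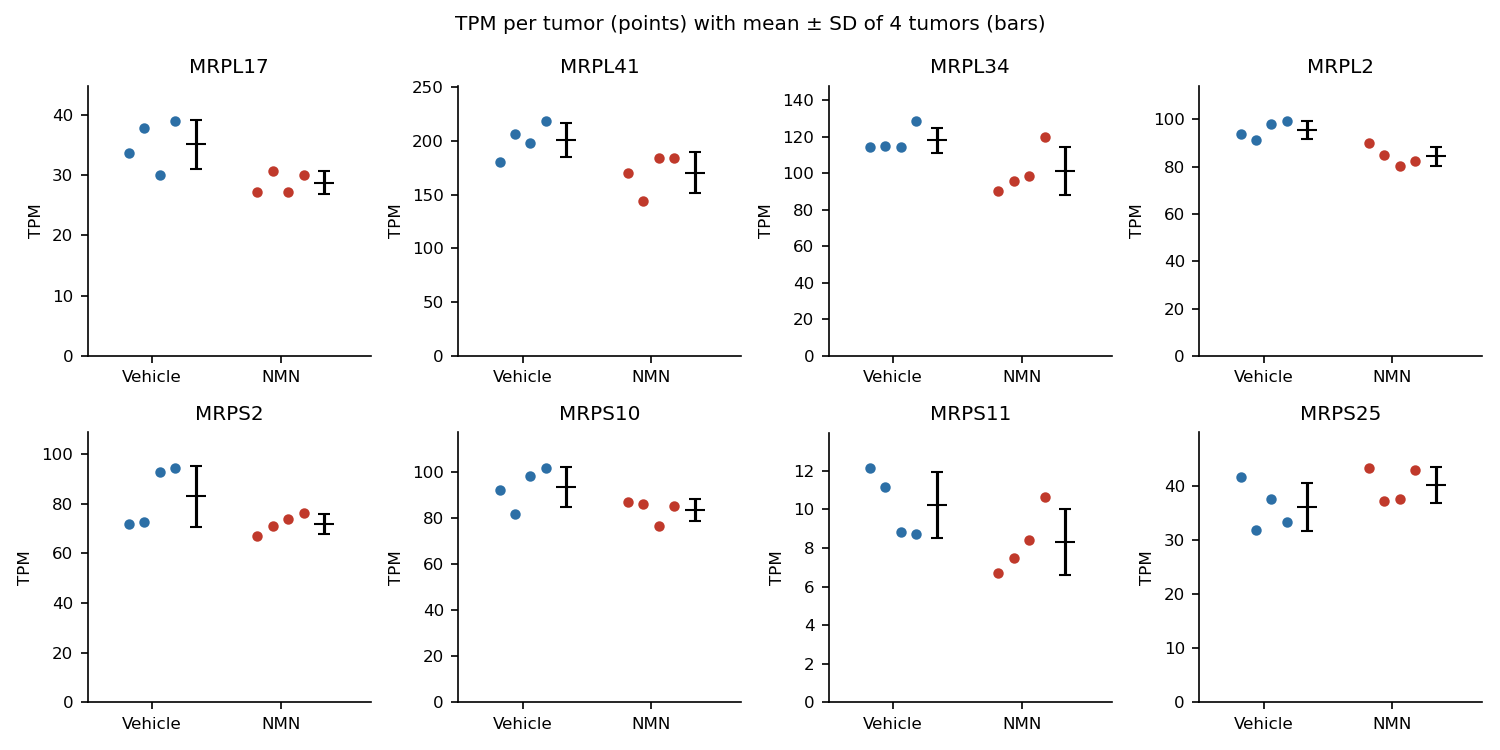
TPM in each of the 8 tumors for 4 large subunit members and 3 small subunit members with a lower mean with NMN, and for MRPS25 with a higher one, with the mean and SD of each group. For MRPL2 the 4 NMN tumors (80.4 to 89.8 TPM) lie below the 4 Vehicle tumors (91.0 to 99.1 TPM), and in the other panels at least 1 tumor crosses.

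The symbols MRPS18A, MRPS30 and MRPS36 do not sit where their letter says, and the split between subunits was repeated by structure. The first 2 are large subunit components in the solved human ribosome, and the last belongs to the oxoglutarate dehydrogenase complex. Their log2 fold changes were -0.09 ± 0.08, -0.06 ± 0.10 and -0.05 ± 0.12. MRPS18B and MRPS18C, the other two relatives of MRPS18A, are small subunit components and stood at -0.08 ± 0.09 and -0.13 ± 0.13. Placed by structure, 43 of 51 large subunit genes and 21 of 26 small subunit genes had a lower mean with NMN, with medians of -0.10 and -0.09. Split by origin, 41 of 46 members with a bacterial counterpart had a lower mean (median -0.11), as did 21 of 29 mitochondria-specific members (median -0.10), among which MRPS18B was counted by its current nomenclature name.

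The summed TPM gave the size of the shift in each tumor. The 49 large subunit symbols added up to 4305, 4111, 4169 and 4584 TPM in NMN 1 to 4 and to 4653, 4442, 4661 and 4667 TPM in Vehicle 1 to 4. The means were 4292 ± 211 and 4606 ± 110 (SD, n = 4), a difference of -6.82%. NMN 4 was the 1 NMN tumor that passed the lowest Vehicle tumor, Vehicle 2.

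The 29 small subunit symbols added up to 1931, 1881, 1878 and 2101 TPM with NMN and to 2070, 1955, 2092 and 2093 TPM with Vehicle. The means were 1947 ± 105 and 2053 ± 65.7 (SD, n = 4), a difference of -5.13%, and NMN 4 stood above every Vehicle tumor. Together the members made up between 0.599% and 0.676% of all TPM. The median small subunit gene was at 63.0, 61.9, 60.8 and 66.5 TPM with NMN and at 72.0, 72.6, 70.2 and 74.0 TPM with Vehicle, groups that did not overlap. After median-of-ratios scaling that median overlapped, at up to 67.1 in NMN 2 against 65.8 in Vehicle 3. The median large subunit gene went the other way. In TPM its groups overlapped, at 73.3 to 82.5 with NMN and 80 to 88.2 with Vehicle. After scaling they did not, at 74.85 (NMN 4) to 79.51 (NMN 2) against 82.61 (Vehicle 3) to 90.02 (Vehicle 4).

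The 2 subunits kept nearly the same proportion in every tumor. Small over large subunit TPM was 0.449, 0.457, 0.450 and 0.458 in NMN 1 to 4 and 0.445, 0.440, 0.449 and 0.449 in Vehicle 1 to 4. The group means of 0.454 ± 0.00495 and 0.446 ± 0.00402 (SD, n = 4) differed by more than either SD. NMN 2, 3 and 4 lay above every Vehicle tumor, and NMN 1 fell between Vehicle 1 and Vehicle 3. By structure the means were 0.389 and 0.382, and the groups overlapped more. There NMN 2 (0.392) and NMN 4 (0.394) lay above every Vehicle tumor. NMN 1 (0.386) and NMN 3 (0.382) lay within the Vehicle range of 0.375 to 0.388.

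**Figure D4:**
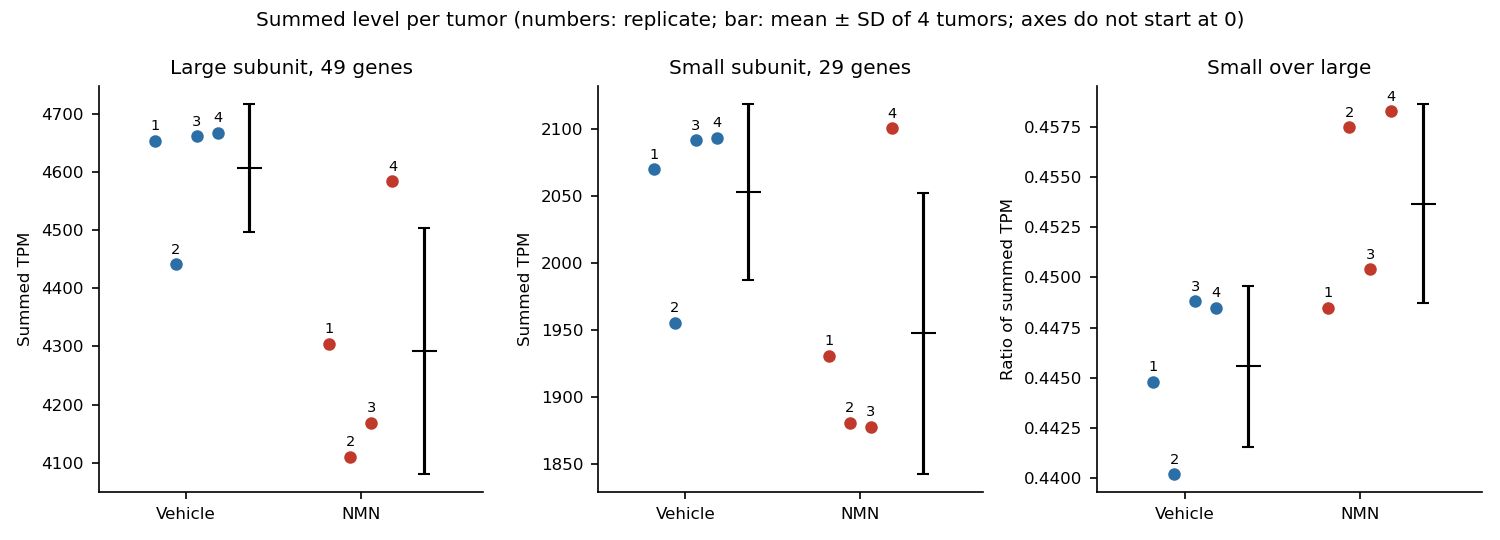
Summed TPM of large and small subunit symbols and the ratio of small to large in each tumor, with the group mean and SD. NMN 1, 2 and 3 lie below the Vehicle tumors in both sums, NMN 4 lies within or above them, and the ratio stays between 0.440 and 0.458.

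On the TPM scale the lower levels were seen in NMN 1, 2 and 3 more than in NMN 4. NMN 1 was below every Vehicle tumor in 27 of 78 members (15.4% of tested genes), NMN 2 in 42 (32.1%) and NMN 3 in 41 (19.1%). NMN 4 was below in 9 (5.43%) and above in 21 (32.3%), while NMN 1, 2 and 3 were above in 3 (16.4%), 4 (10.8%) and 3 (19.8%). NMN 1, 2 and 3 were all below every Vehicle tumor in 14 members, 8 large and 6 small, against 6.15% of tested genes, and all above in 0, against 3.84%. The lowest of the 8 tumors was an NMN tumor for 62 members, against 44.9% of tested genes.

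That order of the tumors depended on the scaling, although the group difference did not. Median-of-ratios scaling divided NMN 2 by 0.922 and NMN 4 by 1.10. On that scale NMN 1 was below every Vehicle tumor in 36 members (18.5% of tested genes), NMN 2 in 21 (20.8%), NMN 3 in 41 (22.0%) and NMN 4 in 34 (16.0%). There, NMN 1, 2 and 3 were all below every Vehicle tumor in 6 members, 5 large and 1 small, against 5.41% of tested genes. In TPM that count was 14, so it too depended on the scaling. The scaled sums of all members were 6186, 6496, 6028 and 6065 with NMN and 6502, 6945, 6329 and 6900 with Vehicle, a difference of -7.13% beside -6.30% in TPM. With TPM it was NMN 4 that stood within the Vehicle range, and with the other scale it was NMN 2.

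On the TPM scale, other signals moved with the same tumors. After median-of-ratios scaling the member sum of NMN 4 (6065) was below those of NMN 1 (6186) and NMN 2 (6496). The members therefore did not keep this order of tumors on that scale. NMN 1, 2 and 3, where members were lowest in TPM, were also the tumors with 34.5 to 55.1 TPM of muscle markers, below every Vehicle tumor, and with 5593 to 7674 TPM of hypoxia genes, above every Vehicle tumor. Summed fibroblast markers were at 118, 128 and 163 TPM in NMN 1, 2 and 3, below every Vehicle tumor (188 to 286 TPM), and at 233 TPM in NMN 4. Of 9 fibroblast markers 4 were tested, and all 4 had a lower mean with NMN. So had all 15 of 15 muscle markers and 13 of 16 cell cycle genes, where 49% of tested genes had one. All 14 of 14 hypoxia genes had a higher mean, against 51% of tested genes. At an unadjusted p under 0.05 by limma, 3 fibroblast, 15 muscle and 1 cell cycle gene were lower, against 2.15% of tested genes. At that threshold 11 hypoxia genes were higher, against 4.79%, and 0 genes of these lists were called after adjustment. The fibroblast sum came mostly from the collagen genes COL1A1 and COL1A2, at means of 117 and 54.7 TPM. The fibroblast markers DCN, LUM, THY1, PDGFRA and PDGFRB stayed under 1 TPM in every tumor, and DCN and LUM were above 0 in NMN 1 alone. No muscle, hypoxia or cell cycle marker was at 0 in all tumors. The part of the muscle, fibroblast, hypoxia and cell cycle signals in the member levels was not tested.

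**Figure D5:**
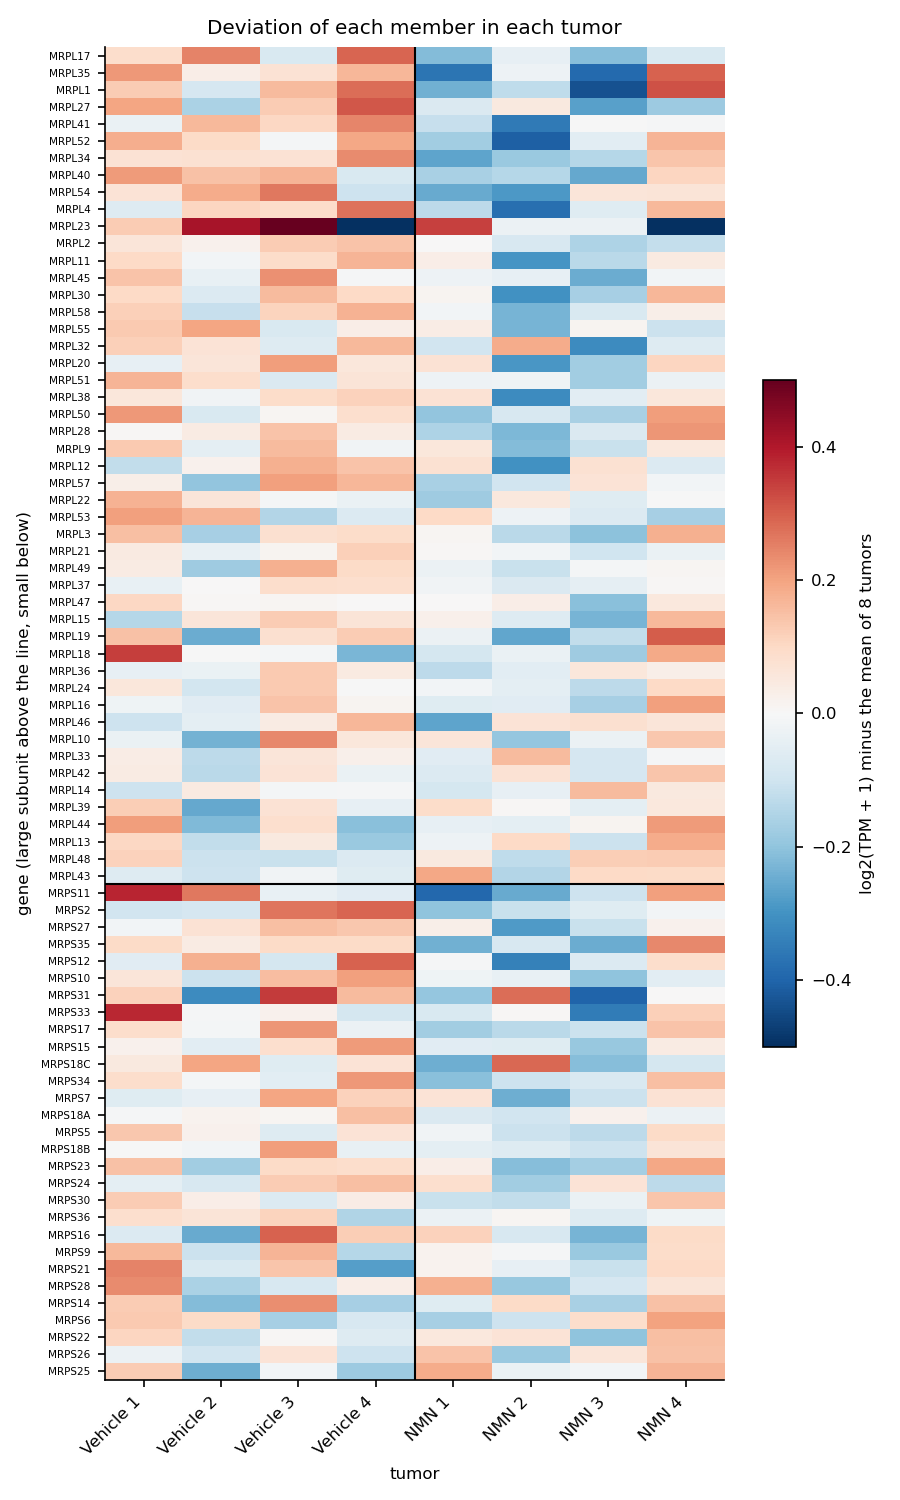
Deviation of each member from its mean over the 8 tumors, in log2(TPM + 1), with large subunit symbols above the line and small subunit symbols below; MRPL23 passes the ends of the color scale in 3 tumors. NMN 1, 2 and 3 show mostly negative values, with medians of -0.03, -0.08 and -0.11, and NMN 4 mostly positive ones, with a median of 0.08, where all tested genes had medians of 0.0037, -0.11, -0.0029 and 0.13 in NMN 1 to 4.

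Genes that build or use the mitochondrial ribosome had small differences too, and 0 of them were called by limma (0 of 13358 genes were). Of 5 ribosome components with other symbols (DAP3, PTCD3, CHCHD1, AURKAIP1 and GADD45GIP1), 4 had a lower mean with NMN. GADD45GIP1 stood at 117 ± 8.85 TPM with NMN and 136 ± 11.5 TPM with Vehicle (SD, n = 4), a log2 fold change of -0.21 ± 0.10 (adjusted p 0.715 by limma). Of 26 genes for assembly and ribosomal RNA handling, 17 had a lower mean and the median was -0.07, which turned to 0.0094 without NMN 2. TRUB2, a pseudouridine synthase, had -0.29 ± 0.11 (adjusted p 0.603 by limma), ERAL1, a chaperone of the small subunit RNA, -0.20 ± 0.12, and NOA1, a GTPase of small subunit assembly, stood at 28.8 ± 1.54 and 32.9 ± 1.33 TPM (adjusted p 0.809 by limma). The groups of NOA1 did not overlap in TPM, like those of 0.966% of tested genes, but did after median-of-ratios scaling, with NMN 2 at 31.9 and Vehicle 1 at 31.0.

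Of 15 mitochondrial translation factors measured, 11 had a lower mean, with a median of -0.07, which turned to 0.0025 without Vehicle 3. TUFM, the elongation factor that brings charged tRNA to the ribosome, was at 215 ± 11.1 TPM with NMN and 239 ± 6.73 TPM with Vehicle (SD, n = 4), a log2 fold change of -0.16 ± 0.08 (adjusted p 0.780 by limma). Its groups too were apart in TPM but overlapped after median-of-ratios scaling, with NMN 1 at 222 and Vehicle 3 at 221. MRRF, which recycles ribosomes, had -0.20 ± 0.11 and GUF1 -0.19 ± 0.12. Of 11 regulators of mitochondrial biogenesis, 7 had a higher mean and the median was 0.02, which turned negative in 4 of the 8 fits that left out 1 tumor, to as low as -0.0313 without NMN 4. PPARGC1A, a coactivator of mitochondrial genes, was low, at 1.81 TPM with NMN and 0.99 TPM with Vehicle (0.45 ± 0.24), PPARGC1B had -0.27 ± 0.23, YY1 had 0.12 ± 0.11, and NRF1, a transcription factor for many of these genes, was level at 10.1 TPM in both.

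Cytosolic ribosomal proteins and respiratory chain subunits were read in the same way. Of 77 cytosolic ribosomal proteins, 28 had a lower mean with NMN and the median log2 fold change was 0.02, while their sum differed by 2.40%. Of 80 tested respiratory chain subunits, 55 had a lower mean, the median was -0.04 and the sum differed by -1.65%. Whether the members differ from either family was not tested. Under quantile normalization the median of the cytosolic proteins was -0.01, so the sign for that family depended on scaling, while the members' median stayed negative under both scalings tried.

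The members are scattered over 21 chromosomes, with 8 each on chromosomes 1, 2 and 17 and 7 on chromosome 11, by GENCODE 29 on GRCh38. A coding gene starting in the opposite direction within 1000 bases was found for 17 of 78 members (21.8%), 14 large and 3 small, and for 7.77% of annotated genes of the table. Among genes with an entry in the RefSeq promoter table used below, the share was 21.7% of members and 8.15% of all. It was 18.2% of respiratory chain subunits and 11.3% of cytosolic ribosomal proteins. In 1 case both partners are members. MRPL46 (chromosome 15, 88459476 to 88467419, minus strand) and MRPS11 (chromosome 15, 88467453 to 88480773, plus strand) lie 33 bases apart, and both were among the members under 15 TPM. The bases between the annotated genes are printed because they are all that separates a large from a small subunit gene. They hold no match to the motifs searched, and the annotated gene AC013489.1 spans them.
MRPL46 to MRPS11, GRCh38 chr15:88467420-88467452, plus strand: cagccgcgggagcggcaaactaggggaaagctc

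Upstream sequence was taken from the RefSeq promoter table (GRCh38.p14), which matched 69 of 78 members, 42 large and 27 small. In the 250 bases before the start, 4 motifs were searched on both strands. They were the NRF1 motif, the ETS motif CCGGAAG, the YY1 motif AAGATGGC and the TATA box TATAAA. The NRF1 motif left a base near its middle open to any letter, and the capitals in the MRPL17 stretch show a match to it. The ETS motif was in 23 members (33.3%, and 33.3% in each subunit) and in 12.8% of all 14049 promoters of the table. The NRF1 motif was in 8 members (11.6%) and 8.19% of all, the YY1 motif in 5 (7.25%) and 1.48%, and the TATA box in 2 (2.90%) and 7.93%. Cytosolic ribosomal proteins had the ETS motif in 29% and respiratory chain subunits in 24.2%, and the latter had the NRF1 motif in 21.2%. A match describes letters and not a bound site. The bases searched included annotated exons, which in some members, MRPL51 among them, filled all 250 bases.

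Median fold changes by motif lay close together. Members with an NRF1 motif had a median log2 fold change of -0.12 (n = 8) and those without one of -0.11 (n = 61). With an ETS motif the median was -0.12 (n = 23) and without one -0.10 (n = 46).

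Upstream stretches are shown for 4 members that the results name, read 5′ to 3′ on the gene's strand, with NRF1 or ETS matches on either strand in capitals and annotated exon bases left out. MRPL17, with the lowest fold change, holds the NRF1 motif 81 bases before its start. MRPL58, whose groups did not overlap after median-of-ratios scaling, holds the ETS motif in both orientations. MRPS10 and MRPS18A, a small subunit gene and an S-named large subunit gene, each hold 1 ETS motif near the start, at 22 and 31 bases before it.
MRPL17, chr11:6683402-6683590, minus strand: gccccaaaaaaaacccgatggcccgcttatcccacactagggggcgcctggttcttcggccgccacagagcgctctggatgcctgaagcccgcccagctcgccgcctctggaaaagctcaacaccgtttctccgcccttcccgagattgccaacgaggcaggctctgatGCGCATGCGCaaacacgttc
MRPL58, chr17:75012420-75012669, plus strand: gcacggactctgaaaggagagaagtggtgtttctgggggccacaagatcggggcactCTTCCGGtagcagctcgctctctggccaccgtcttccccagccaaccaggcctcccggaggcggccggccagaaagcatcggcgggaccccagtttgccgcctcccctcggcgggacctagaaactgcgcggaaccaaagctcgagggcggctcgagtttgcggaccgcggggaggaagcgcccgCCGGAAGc
MRPS10, chr6:42217866-42218111, minus strand: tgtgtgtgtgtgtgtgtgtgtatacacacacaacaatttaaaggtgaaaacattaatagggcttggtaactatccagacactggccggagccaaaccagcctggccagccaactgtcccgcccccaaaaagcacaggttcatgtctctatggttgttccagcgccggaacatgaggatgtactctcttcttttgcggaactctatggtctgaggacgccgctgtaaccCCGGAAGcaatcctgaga
MRPS18A, chr6:43687792-43688041, minus strand: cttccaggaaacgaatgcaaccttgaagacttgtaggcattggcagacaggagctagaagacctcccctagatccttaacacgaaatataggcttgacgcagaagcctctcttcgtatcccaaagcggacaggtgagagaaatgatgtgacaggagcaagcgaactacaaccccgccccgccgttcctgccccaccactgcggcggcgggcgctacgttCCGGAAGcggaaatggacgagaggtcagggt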

How the data were processed

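RNA-seq of 8 whole tumors was used, 4 per group. The deposited values are TPM per gene in 1 table, as the column names say. Per the submitters' processing notes the build was GRCh38.p13 and the tools were RSEM 1.2.8, HISAT2 2.1.0 and Bowtie2 2.2.5, with no role for each. Mouse reads may be part of a value: their handling, like strandedness, is not given in the sources here. TPM keeps no read depth, so no counting interval is given.

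Genes with at least 1 TPM in at least 4 tumors (13358 of 18164; 183 were at 0 throughout) were fitted on log2(TPM + 1) by limma 3.58.1 (R 4.3.3, variance trended on level), group as the only term, two-sided, with Benjamini-Hochberg adjustment over all of them at 0.05. A pseudocount of 1 understates fold changes of low genes. Fold changes are given ± SE and levels ± SD. Single genes also had an exact permutation test over 70 splits. The fit was tested on simulated data.

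Members, gene lists and tests were chosen with earlier results of these data known, and the split by bacterial origin after seeing these values. Named are, per subunit, the 6 members with the smallest unadjusted p in each direction, the 3 highest and 3 lowest by level, MRPS18A, MRPS18B, MRPS18C, MRPS30, MRPS36, MRPL12 and MRPL58, and up to 3 genes per other pathway list. Other members named were chosen after their values were seen. The alternatives were a filter of 5 TPM or none, a pseudocount of 0.1 or 5, median-of-ratios and quantile scaling, no variance trend, robust variance, a replicate block, each tumor left out, and subunits by structure. Marker lists other than muscle, hypoxia, cell cycle, epithelial and receptor genes were fibroblast (summed 118 to 233 TPM with NMN, 188 to 286 TPM with Vehicle), myeloid (53.6 to 92.7 and 56.4 to 78.6 TPM), endothelial (5.53 to 7.53 and 3.96 to 5.93 TPM), adipocyte (16.0 to 217 and 10.9 to 100 TPM) and lymphoid (1.82 to 3.18 and 2.00 to 4.43 TPM).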

Additional observations from a re-analysis of the deposited data

Results flagged for a closer look

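In 82 groups of 4 tumors examined, 7 held 1 tumor far from the other 3, judged by its gap to the nearest of them as a share of the group's range and Dixon's critical value at 95%. Chance flags about 1 group in 20.

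Vehicle 2 had the lowest summed TPM of the large subunit in its group, at 4442 against 4653 to 4667 TPM (gap share 0.938), and of the small subunit, at 1955 against 2070 to 2093 TPM (0.830). MRPS35 was also lowest in Vehicle 2, at 86.2 against 89.4 to 89.5 TPM (0.959) (the other 3 tumors were nearly equal). Vehicle 4 was high for MRPL34, at 128 against 114 to 115 TPM (0.980), and for MRPS18A, at 136 against 122 to 124 TPM (0.864). Vehicle 3 was high for MRPS18B, at 121 against 102 to 104 TPM (0.869). In the NMN group, MRPL51 was low in NMN 3, at 285 against 315 to 317 TPM (0.929).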

How the results depend on the processing

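Under every setting tried 0 members passed the adjusted threshold by limma, with the smallest adjusted p of a member between 0.269 (without NMN 4) and 1 (without NMN 3), and the median fold change of all members stayed negative, from -0.13 (without NMN 4) to -0.07 (without NMN 2). Members with a lower mean with NMN numbered 61 to 70 of 78 when 1 tumor was left out. Of the 38 members that the naming rule picked, 31 kept their direction under every setting, while 29 moved by over 1.5 times or turned when 1 tumor was left out.

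Members lower with NMN at an unadjusted p under 0.05 numbered 2 as reported, 4 with no filter, 5 with median-of-ratios scaling and 1 with no variance trend. Leaving out 1 tumor gave 0 (without NMN 1) to 11 (without NMN 4), with 1 without NMN 3, Vehicle 3 or Vehicle 4. Of all tested genes, 0 were called as reported, and 0 to 54 when 1 tumor was left out, the 54 without NMN 4, with 652 genes lower and 624 higher at an unadjusted p under 0.05. The ratio of small to large subunit TPM was 0.389 with NMN and 0.382 with Vehicle by structure, and 0.452 to 0.455 and 0.444 to 0.447 when 1 tumor was left out. The sums of all members were then 6091 to 6322 TPM with NMN and 6625 to 6746 TPM with Vehicle.

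Signs turned for values near 0. Median-of-ratios scaling gave -0.0008 for MRPS14 and -0.0003 for MRPS6, and quantile normalization gave -0.0001 for MRPL42 and a cytosolic ribosomal protein median of -0.0116. Leaving out 1 tumor gave a median of -0.14 to 0.0094 for assembly genes, -0.12 to 0.0025 for translation factors, -0.0313 to 0.0646 for biogenesis regulators and -0.0125 to 0.0601 for cytosolic ribosomal proteins. It gave -0.0092 to 0.0727 for MRPL14, -0.164 to 0.0244 for MRPL19, -0.0109 to 0.0623 for MRPL42, -0.0267 to 0.0983 for MRPL39, -0.0604 to 0.0888 for MRPS14, -0.0095 to 0.108 for MRPS22 and -0.0549 to 0.0677 for MRPS6. The cause was not tested.

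With the replicate number as a block, 2 genes of the table and 0 members were called, with a smallest adjusted p of a member of 0.503. Tumors with the same number had correlations of deviations of 0.026, 0.001, -0.032 and -0.123, and those with different numbers from -0.278 to 0.194. With 4 tumors per group such correlations cannot decide whether the numbers pair tumors. Nothing in the labels says that they do, and the numbers were read as names.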
